A study of Homo sapiens with 3 samples.

Results

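Nuclear receptors are transcription factors that many small lipophilic ligands switch on or off, and 39 of their genes were followed in HepG2 cells, an established line from a human liver tumour. The genes were taken from a list, and each was represented by the probe set that carried its symbol and no other and had the highest mean over the arrays. Of the 39 genes, 34 had such a probe set among 18417 genes measured in this way, and 20 of the 34 reached the level filter, a mean log2 value of at least 6.66, as did 11050 genes in all. The 3 arrays were of cells kept for 24 h with graphene oxide (GO), of cells kept for 24 h with its reduced form (rGO), which carries fewer oxygen groups, and of control cells whose treatment is given as none. GO and rGO were each given in MEM at their own EC20, a dose taken from viability assays. No concentration appears in the labels, and the amounts of material may have been unequal. Each group was 1 array of 1 cell line. Every difference below is therefore 1 array minus another, with no replicate, no error and no test, and it cannot be told from variation between dishes.

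Most nuclear receptors share a zinc finger domain that reads a short DNA half-site and a pocket that binds a ligand. Many of those that sense lipids, bile acids, drugs, retinoic acid, vitamin D or thyroid hormone bind DNA as a pair with a retinoid X receptor, whereas steroid receptors bind as pairs of their own kind. The liver uses them to set lipid, bile acid, glucose and drug metabolism, and orphan receptors of the NR2 and NR5 groups help to keep the hepatocyte programme running.

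Over all 33297 probe sets the median log2 value was 6.63 for GO, 6.66 for rGO and 6.65 for control. All 12 hepatocyte markers, ALB and AFP among them, passed the level filter, with GO values from 10.8 to 13.5, rGO values from 11.1 to 13.6 and control values from 11.0 to 13.5. Their summed level on the linear scale was 77709 in the GO array, 77787 in the rGO array and 73840 in the control array. None of 5 leukocyte and 5 endothelial markers measured passed the filter. The summed leukocyte level was 228 in the GO array, 224 in the rGO array and 232 in the control array, and the summed endothelial level was 181 for GO, 187 for rGO and 195 for control. Of 6 fibroblast and stellate markers, COL1A1 and PDGFRB passed, and the summed level was 505 in the GO array, 442 in the rGO array and 498 in the control array. COL1A1 stood at -0.07 after GO and -0.17 after rGO, and PDGFRB at 0.33 and -0.40. PDGFRB read 7.30 in the GO array, 6.57 in the rGO array and 6.97 in the control array, so its rGO value lay under the filter level. Single hepatocyte markers moved in both directions after GO, with TTR, the transthyretin gene, at 0.70, APOA1 at 0.29 and the fibrinogen gene FGB at -0.85. Of the 12, 1 was past 1.5-fold higher and 1 past 1.5-fold lower, against 1.91% and 4.23% of all genes past the filter. After rGO TTR, APOA1 and FGB stood at 0.16, 0.03 and -0.10. The part of these marker differences in the results was not tested. In RNA from whole dishes, fewer cells with a transcript and less of it per cell cannot be told apart.

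After GO, NR2C1, which was lower, and PPARG, which was higher, were the receptors furthest from control. The median size of the log2 difference was 0.19 for the 20 receptors past the filter and 0.17 for all genes past it. None of the 20 receptors past the filter was at least 2-fold higher or lower, where 0.253% of all genes past the filter were higher and 0.914% were lower. At 1.5-fold, 1 of 20 was lower, which is NR2C1, and 0 were higher, against 4.23% and 1.91% of all genes. With 20 genes, those shares correspond to about 1 gene or fewer, so the count is near the background. At 1.3-fold PPARG was the 1 receptor higher and NR2C1 the 1 lower, against 6.56% and 10.4% of all genes. The median log2 difference from control was 0.08 for the 20 receptors and 0.01 for all genes past the filter. Of the 20, 13 stood above 0 and 7 below, whereas 51.1% of all genes stood above 0. All 20 lay above the filter level in each of the 3 arrays, so none had passed through 1 group alone.

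After rGO, 0 of the 20 receptors were 1.5-fold higher or lower, where 0.0271% of all genes were higher and 0.127% lower (at 2-fold, 0.0% higher and 0.0181% lower). Their log2 differences from control lay between -0.16 and 0.12, with a median of -0.04 against -0.01 for all genes past the filter. Of the 20, 7 stood above 0 and 13 below, and 46.8% of all genes stood above 0. The GO difference was larger in size than the rGO difference for 16 of the 20, against 72.9% of all genes. GO was the highest of the 3 arrays for 13 of the 20 and the lowest for 4, where all genes gave 43.9% and 39.8%.

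**Figure D1:**
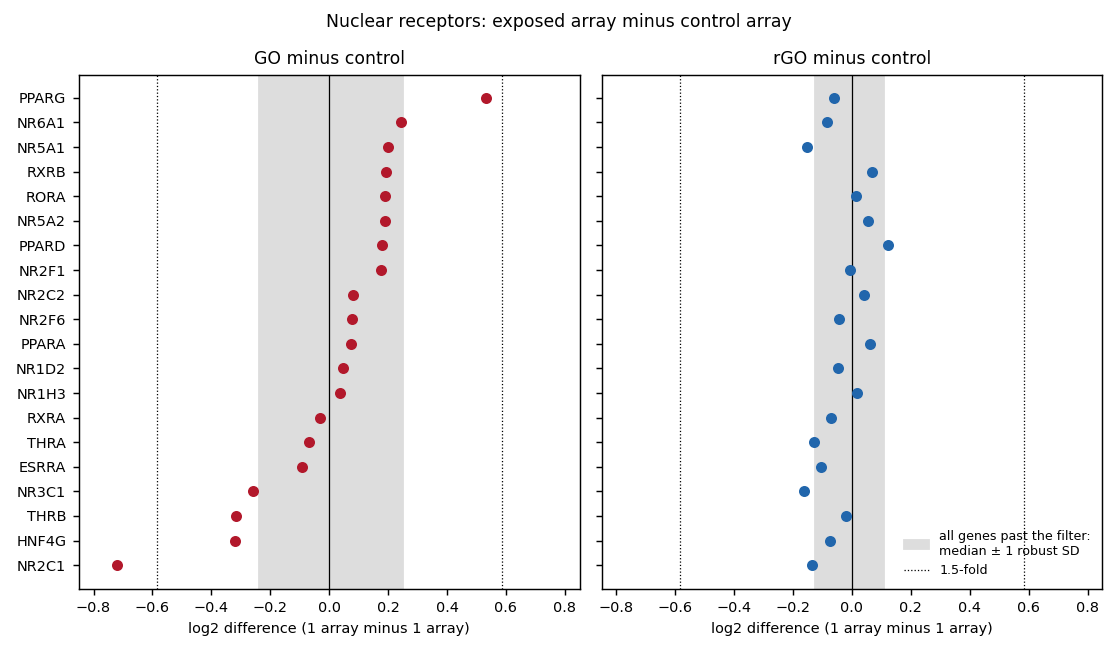
Log2 difference from control (horizontal axis) of the 20 nuclear receptors past the level filter, GO on the left and rGO on the right; each point is 1 array minus 1 array. Grey bands show the median ± 1 robust SD of all 11050 genes and dotted lines mark 1.5-fold. NR2C1 at -0.72 is the only point past a dotted line, PPARG stands at 0.53, and the rGO points lie between -0.16 and 0.12.

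To set the scale of these values, the robust SD (the scaled median absolute deviation) of the GO minus control difference over all genes past the filter was 0.24. Of the 20 receptors, 15 lay within 1 robust SD of the median of all genes, as did 66.0% of all genes. For rGO minus control the robust SD was 0.12, and again 15 of 20 receptors lay within it, against 67.0% of all genes. Where a gene had a pair of probe sets past the filter, the differences from control of a single probe set scattered with a robust SD of 0.09 for GO and 0.06 for rGO (296 genes), a spread that leaves out variation between dishes.

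NR2C1 encodes TR2, an orphan receptor that binds paired half-sites and joins its relative TR4, encoded by NR2C2, in a repressor complex known from embryonic and fetal globin genes. The NR2C1 log2 value was 8.62 in the GO array, 9.21 in the rGO array and 9.34 in the control array. The GO array was thus the low one, 1.65-fold under control (log2 difference -0.72), and the rGO array stood 0.13 under control on the log2 scale. Among the 11050 genes past the filter the GO difference of NR2C1 was the 260th from the bottom. NR2C2 stood at 8.85 in the GO array, 8.81 in the rGO array and 8.77 in the control array, so the partner gene differed from control by 0.08 and 0.04.

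PPARG encodes the receptor that drives fat cell formation and lipid storage and that binds fatty acids and the glitazone drugs. Its log2 value was 9.15 in the GO array, 8.55 in the rGO array and 8.61 in the control array. Here the GO array alone stood apart, 1.45-fold over control (0.53), while the rGO array differed from control by -0.06. That GO difference ranked 286th from the top among genes past the filter. The related PPARD, a receptor for fatty acids found in most tissues, was at 8.26 in the GO array, 8.20 in the rGO array and 8.08 in the control array (0.18 and 0.12 over control). PPARA, which drives fatty acid oxidation in liver and is the target of fibrate drugs, stood at 0.07 after GO and 0.06 after rGO.

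**Figure D2:**
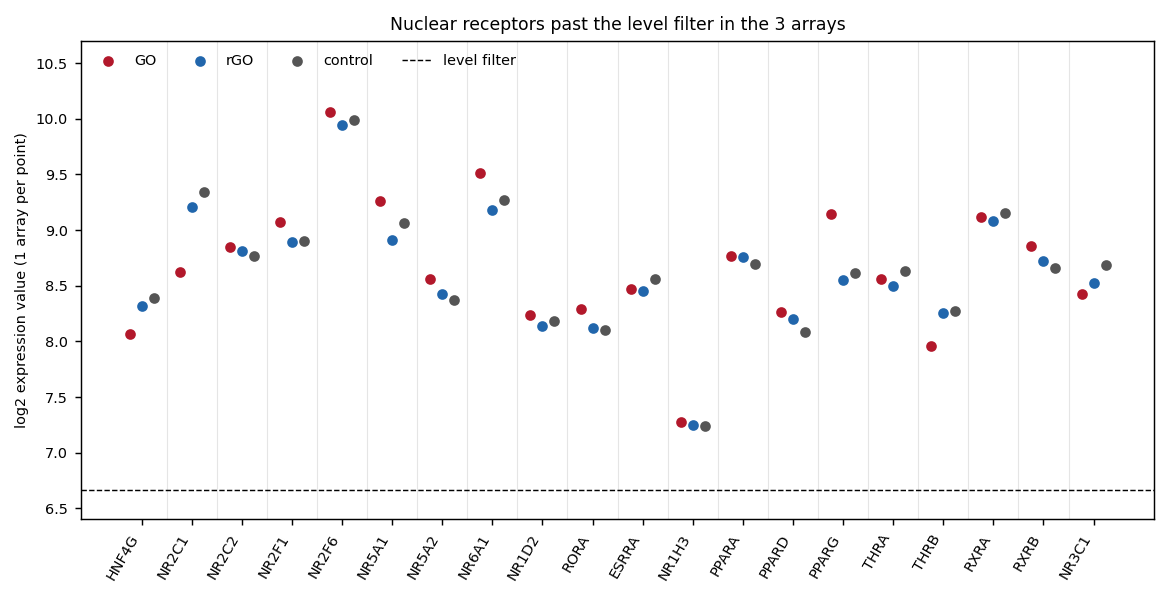
Log2 expression value (vertical axis) of each of the 20 nuclear receptors past the level filter in the GO, rGO and control arrays, 1 array per point, with the filter level of 6.66 as a dashed line. Heights of different genes depend on their probes and are not comparable; within a gene, GO is the low point for NR2C1 (8.62) and the high point for PPARG (9.15).

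The sequences before the starts of NR2C1 and PPARG are shown because these members stood furthest from control, on opposite sides. RefSeq promoter windows (GRCh38.p14) were reduced to the 250 bases before each transcript start. They were searched on both strands for AGGTCA, the half-site of many nuclear receptors, and for CACGTG, the E-box read by factors such as CLOCK and MYC; these motifs share no overlap in the windows shown. NR2C1 has 1 listed start, next to the low-coordinate side of its window, chr12:95073619-95073868 on the minus strand. PPARG has 6, of which the windows at chr3:12287118-12287367 and chr3:12288810-12289059 on the plus strand are printed, and the expression value does not tell its starts apart. Capitals mark AGGTCA in the PPARG windows and CACGTG in the NR2C1 window, and all run 5′ to 3′.
NR2C1: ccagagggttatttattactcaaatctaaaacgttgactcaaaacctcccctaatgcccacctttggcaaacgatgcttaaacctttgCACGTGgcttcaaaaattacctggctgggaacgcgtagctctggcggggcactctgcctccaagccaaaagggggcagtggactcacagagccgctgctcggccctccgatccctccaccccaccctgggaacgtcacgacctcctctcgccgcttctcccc
PPARG first window: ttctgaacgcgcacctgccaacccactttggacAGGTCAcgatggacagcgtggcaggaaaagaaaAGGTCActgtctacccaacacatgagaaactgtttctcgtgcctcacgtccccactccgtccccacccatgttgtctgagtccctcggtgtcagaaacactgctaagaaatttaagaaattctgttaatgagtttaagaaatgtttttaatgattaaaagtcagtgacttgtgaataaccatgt
PPARG second window: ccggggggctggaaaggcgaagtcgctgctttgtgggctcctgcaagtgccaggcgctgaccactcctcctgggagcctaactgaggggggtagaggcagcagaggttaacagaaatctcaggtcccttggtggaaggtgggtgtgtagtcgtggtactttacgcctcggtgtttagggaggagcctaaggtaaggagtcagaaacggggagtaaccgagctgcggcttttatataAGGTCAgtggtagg
The NR2C1 window held 1 E-box and 0 half-sites, the first PPARG window 2 half-sites and the second 1. Of the 6 PPARG windows, 3 held no half-site, and the third that held one overlaps the second window and holds the same site; the printed windows were picked because they hold it. GC content was 56.4% in the NR2C1 window, and 44.8% and 57.2% in the PPARG windows. Among 35116 RefSeq windows of this length, 12.1% held the half-site and 6.34% the E-box. The listed receptors had 89 windows for 36 genes, of which 14 (15.7%), in 10 genes, held the half-site and 6 (6.74%), in 5 genes, held the E-box. These shares are close to those of all windows, windows of 1 gene can overlap, and a match is only a match of letters.

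Of the retinoid X receptors, the common partners of the lipid and vitamin sensors, RXRA and RXRB passed the filter. RXRB stood at 8.85 in the GO array, 8.73 in the rGO array and 8.66 in the control array, 0.19 and 0.07 over control. Its 3 probe sets gave GO differences between 0.19 and 0.23 and rGO differences between 0.04 and 0.07, and as probe sets of 1 gene they may share probes and are no replicates. RXRA differed from control by -0.03 after GO and -0.07 after rGO. RXRG, at a mean of 4.62, was below the filter.

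Both thyroid hormone receptor genes passed the filter, and both stood below control in each exposure. THRB, the main form in liver, stood at 7.96 in the GO array, 8.25 in the rGO array and 8.27 in the control array, so the GO array was low by 0.31 and the rGO array lay 0.02 under control. THRA was at 8.56 in the GO array, 8.50 in the rGO array and 8.63 in the control array, where the rGO array was the lowest (-0.13, and -0.07 for GO). The differences of THRB after rGO and of THRA after GO were smaller than the robust SD of single probe sets given above. Both exposures were also set against the same control array. Of the retinoic acid receptors, RARB and RARG were below the filter. RARA had no probe set of its own, and the probe set it shares with BCOR, a corepressor gene, read 7.88 in the GO array, 7.56 in the rGO array and 7.63 in the control array, differences of 0.25 and -0.06 that cannot be given to either gene.

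Among the other sensors, NR1H3 encodes LXR alpha, which binds oxysterols and drives cholesterol efflux and fatty acid synthesis. It was level across the arrays, at 7.27 in the GO array, 7.25 in the rGO array and 7.24 in the control array. NR1I3, the drug sensor CAR, had a mean of 5.70 and VDR, the vitamin D receptor, one of 5.57, both below the filter. NR1H2, NR1I2, NR2F2 and NR0B1 had no probe set listed under their symbol or Entrez ID in the annotation used, and were not analysed here.

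NR3C1, which encodes the glucocorticoid receptor, was the steroid receptor that passed the filter. Its log2 value was 8.43 in the GO array, 8.52 in the rGO array and 8.69 in the control array. Both exposed arrays were below control, by 0.26 after GO and 0.16 after rGO on the log2 scale, and the rGO value was the furthest below control of the 20 receptors in that comparison. ESRRA, the estrogen-related receptor that drives mitochondrial genes with PGC-1 coactivators, stood at 8.47 in the GO array, 8.45 in the rGO array and 8.56 in the control array (-0.09 and -0.11). ESRRA and NR3C1 thus read under control in both exposures. The ESRRA difference after GO was smaller than the robust SD of single probe sets given above, and both comparisons use the same control array.

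Of the orphan receptors of the NR2 group, HNF4G, a relative of the hepatocyte regulator HNF4A, was at 8.07 in the GO array, 8.32 in the rGO array and 8.39 in the control array. The GO array was the low one by 0.32, and the rGO difference was -0.07. NR2F1, the repressor COUP-TFI, ran the other way, at 9.08 in the GO array, 8.89 in the rGO array and 8.90 in the control array (0.18 and -0.01). NR2F6, a repressor of the same family, differed from control by 0.08 and -0.04. The 5 receptors of this group past the filter therefore spread from -0.72 to 0.18 after GO, with a median of 0.08, and from -0.13 to 0.04 after rGO.

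The NR5 and NR6 receptors past the filter were all above control after GO. NR5A2 encodes LRH-1, which supports bile acid synthesis in liver, and stood at 8.56 in the GO array, 8.43 in the rGO array and 8.37 in the control array (0.19 and 0.05). NR6A1, the germ cell nuclear factor, stood at 9.51 in the GO array, 9.18 in the rGO array and 9.27 in the control array (0.24 and -0.08). NR5A1, encoding SF-1, the master regulator of adrenal and gonadal steroid synthesis, read 9.26 in the GO array, 8.91 in the rGO array and 9.06 in the control array (0.20 and -0.15). NR5A1 and NR6A1 are next to each other among the protein-coding genes of chromosome 9, and both had GO as the high array and rGO as the low one. That order was shared by 6 of the 20 receptors, with NR1D2, NR2F1, NR2F6 and PPARG on other chromosomes, and by 19.7% of all genes past the filter. Whether the probe set named NR5A1 reads transcripts of that gene alone was not tested.

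The clock-linked receptors past the filter were RORA, which activates BMAL1, and NR1D2, encoding REV-ERB beta, which represses it. RORA was at 8.29 in the GO array, 8.12 in the rGO array and 8.10 in the control array (0.19 and 0.02). NR1D2 differed from control by 0.05 after GO and -0.05 after rGO. NR1D2, THRB and RARB follow each other among the protein-coding genes of chromosome 3, and after GO they stood at 0.05, -0.31 and 0.27, with RARB below the filter.

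The 14 receptors below the filter were NR1I3, NR2E1, NR2E3, NR3C2, RARB, RARG, RXRG, RORB, VDR, ESR1, ESR2, ESRRB, ESRRG and PGR, with means between 3.90 (NR2E1) and 6.43 (NR3C2). None of the 14 reached 6.66 in any array, so their differences mix signal with background. NR3C2, the mineralocorticoid receptor, read 6.57 in the GO array, 6.51 in the rGO array and 6.19 in the control array. RARG read 5.51 in the GO array, 5.26 in the rGO array and 5.71 in the control array, and RARB read 4.74 in the GO array, 4.62 in the rGO array and 4.47 in the control array. For ESR1, the estrogen receptor, its 2 probe sets gave 0.03 and -0.13 after GO, and 0.26 and -0.07 after rGO, so they did not have the same sign in either comparison. The median of the 14 after GO was -0.01, where the 7367 genes below the filter had one of -0.02. After rGO the 14 had a median of 0.09 with 9 above 0, whereas all genes below the filter had one of -0.03 with 42.0% above 0.

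**Figure D3:**
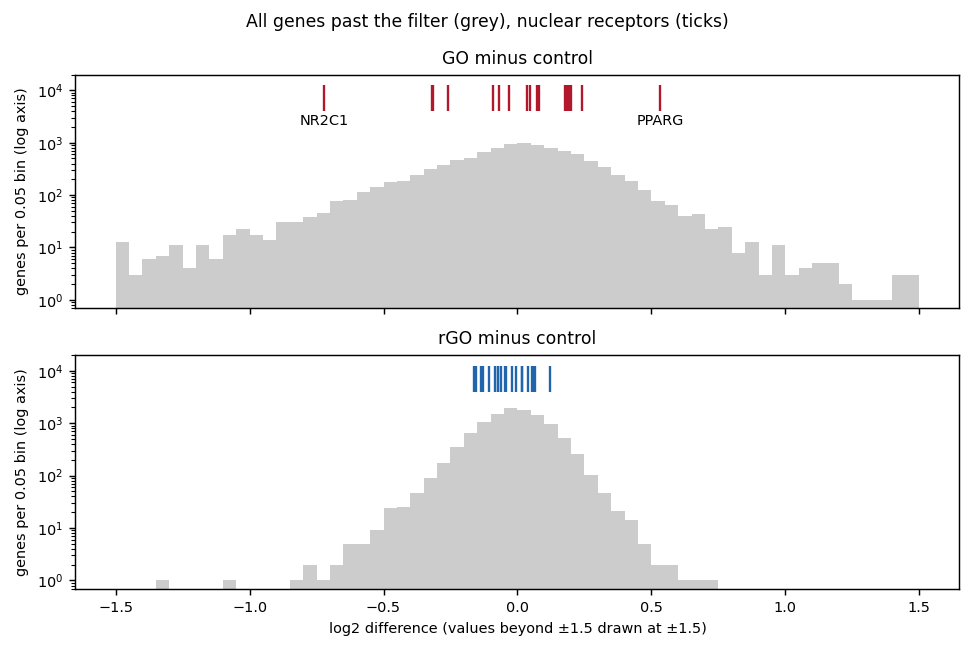
Number of genes (vertical axis, log scale) by log2 difference from control in bins of 0.05, GO above and rGO below, for the 11050 genes past the filter, with the 20 nuclear receptors as ticks. The ticks run from -0.72 (NR2C1) to 0.53 (PPARG) for GO, inside a distribution that reaches past ±1.5, and from -0.16 to 0.12 for rGO.

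Set directly against rGO, GO gave the same pair of genes. PPARG was 1.51-fold higher in the GO array than in the rGO array (log2 difference 0.59), and NR2C1 was lower in it by a like size (-0.59). At 1.5-fold these were 1 of 20 receptors higher and 1 of 20 lower, against 1.82% and 3.20% of all genes past the filter, and none was 2-fold higher or lower (0.262% and 0.534%). Both differences lay so close to 1.5-fold that normalization decides the count: after quantile normalization or median centring only PPARG passed, and after a loess on level only NR2C1. NR5A1 and NR6A1 followed at 0.35 and 0.33, and THRB and HNF4G at -0.30 and -0.25. The median over the 20 was 0.06, with 16 above 0, where all genes had a median of 0.01 and 52.9% above 0. This comparison uses the same GO array as GO minus control and is no independent repeat of it.

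Lists of cofactors and known target genes were set beside the receptors. Of all genes past the filter, 51.1% stood above control after GO and 46.8% after rGO. Of 20 coactivator genes past the filter, 15 stood above control after GO with a median of 0.11, and 0 reached 1.5-fold. NCOA6, a scaffold of histone methyltransferase complexes, stood at 0.43, NRIP1, the ligand-dependent corepressor RIP140 placed in this list, at -0.44, and TRIP4 at -0.38. After rGO 12 of the 20 were above control and the median was 0.05. Of 12 corepressor genes, 7 were above control after GO with a median of 0.06. The histone deacetylase HDAC2 was the 1 member past 1.5-fold, at 9.46 in the GO array, 10.0 in the rGO array and 10.1 in the control array (-0.67 and -0.13). SIN3B stood at 0.39 and TBL1X at 0.31 after GO, and the list's median after rGO was 0.02.

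Targets of the PPARs split after GO, with 7 of 15 above control, 8 below and a median of -0.02. The pantetheinase gene VNN1 read 8.04 in the GO array, 6.63 in the rGO array and 7.06 in the control array, and its 0.98 after GO was the largest of the list; its rGO value lay under the filter level. TXNIP stood at 0.74 and CPT1A, the entry step of mitochondrial fatty acid oxidation, at 0.73, whereas ACADM, the medium-chain dehydrogenase of the same pathway, stood at -0.65. With these, 3 of 15 genes were 1.5-fold higher and 1 lower, against 1.91% and 4.23% of all genes past the filter. The list was chosen with earlier results of these data known, so these counts are no test of enrichment. PLIN2, which coats lipid droplets, stood at 0.58, just under 1.5-fold, and was named after its value was seen. After rGO 3 of the 15 were above control and 11 below, with a median of -0.05 and VNN1 at -0.43.

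For LXR targets, NR1H3 included, 8 of 11 stood above control after GO (median 0.13) and 9 of 11 after rGO (median 0.05), with 0 past 1.5-fold in either. PLTP, the phospholipid transfer protein, stood at 0.57 after GO, ABCA1, the cholesterol exporter, at 0.24 and ABCG8 at -0.33. PXR and CAR targets had a median of -0.14 after GO with 3 of 8 above control. SULT2A1, a sulphotransferase of bile acids and steroids, was at 10.1 in the GO array, 10.8 in the rGO array and 11.0 in the control array, the 1 member past 1.5-fold (-0.88 and -0.19). ALAS1, the first step of haem synthesis, stood at 0.30 and ABCB1 at 0.23 after GO, and the median after rGO was -0.03.

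Glucocorticoid receptor targets had a median of 0.14 after GO, with 8 of 13 above control and 3 at least 1.5-fold higher, where 51.1% of all genes stood above 0 and 1.91% were 1.5-fold higher. IGFBP1, which binds insulin-like growth factors, was the 1 of these past 2-fold, at 12.3 in the GO array, 10.5 in the rGO array and 10.3 in the control array (1.99 and 0.26). SGK1 stood at 0.69 and CEBPD at 0.66 after GO, beside the receptor gene NR3C1 at -0.26. The target TAT, a textbook glucocorticoid-induced liver enzyme gene, stood at -0.04, and PER1 at 0.10, both named after their values were seen. After rGO the median was -0.01. The list was chosen with earlier results of these data known, so its counts are no test of enrichment.

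Only 3 of 11 measured retinoic acid receptor targets passed the filter. TGM2 stood at 0.70 and DHRS3, which converts retinal back to retinol, at 0.66 after GO, and RARRES2 at -0.46, with rGO values of 0.00, 0.18 and -0.07. For thyroid hormone receptor targets the GO median was 0.01, with 4 of 7 above control. DIO1, the liver deiodinase gene that thyroid hormone induces through THRB, was at 9.61 in the GO array, 10.3 in the rGO array and 10.5 in the control array (-0.89 and -0.21). CPT1A is also in this list, and KLF9 stood at 0.14. Of 7 vitamin D receptor targets, 1 passed the filter. This was CYP24A1, the enzyme that inactivates vitamin D, at 7.60 in the GO array, 8.32 in the rGO array and 8.69 in the control array, a difference of -1.10 after GO, past 2-fold, and of -0.37 after rGO.

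Targets of the estrogen-related receptors, ESRRA included, had 4 of 12 above control after GO (median -0.08) and 2 of 12 after rGO (median -0.04). ACADM, also in this list, was its 1 member past 1.5-fold after GO, with CYCS, the cytochrome c gene, at -0.37 and ATP5F1B at -0.24. ROR and REV-ERB targets were evenly split after GO, 3 above and 3 below (median 0.01), with NFIL3 at -0.37, CRY1 at -0.17 and NPAS2 at 0.09. LRH-1 targets had 4 of 5 above control after GO and a median of 0.33. APOM, a carrier of sphingosine phosphate, stood at 0.87 and was past 1.5-fold, the HDL receptor gene SCARB1 stood at 0.41, and CYP7A1, the rate-limiting enzyme of bile acid synthesis, at -0.38. Their median after rGO was 0.00, with APOM at 0.30. Over all genes past the filter the medians were 0.01 after GO and -0.01 after rGO, with 51.1% and 46.8% above 0. After GO 1.91% were 1.5-fold higher and 4.23% lower. Each list's counts are to be read against these shares, and the lists were chosen with earlier results of these data known. The lists are described beside the receptors without a test of any link between them.

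**Figure D4:**
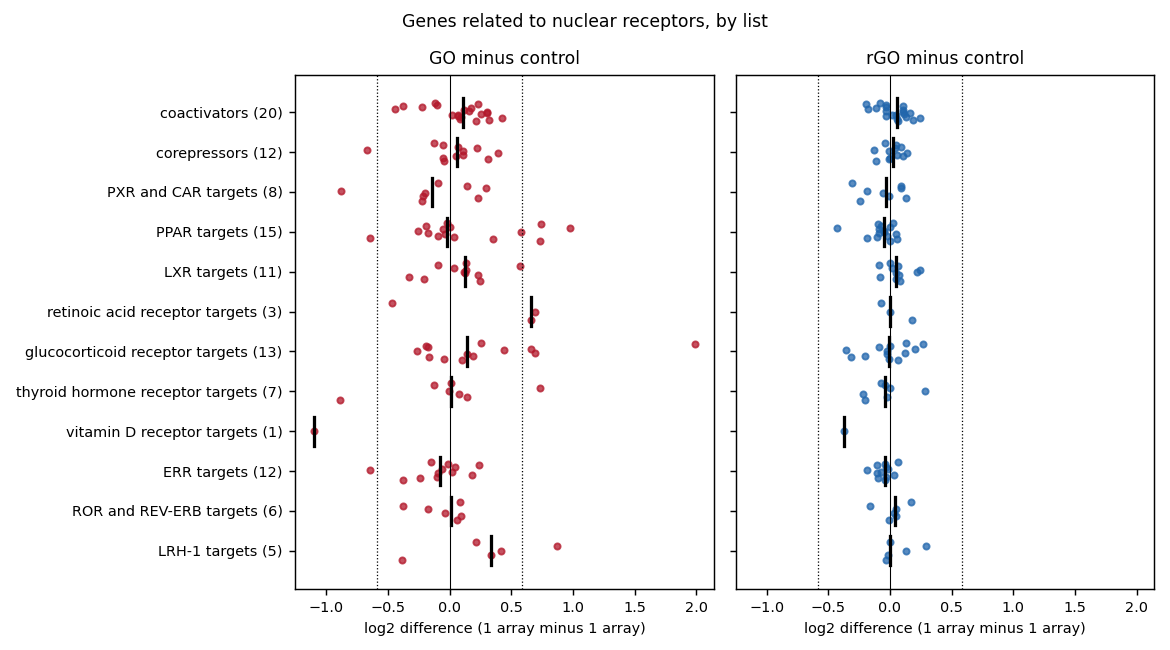
Log2 difference from control (horizontal axis) of the genes past the filter in 12 lists of cofactors and target genes, GO on the left and rGO on the right; each point is a gene, black bars are list medians, dotted lines mark 1.5-fold, and numbers in parentheses count genes. IGFBP1 (1.99) and CYP24A1 (-1.10) are the outermost GO points, and the rGO points all lie inside the dotted lines.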

How the data were processed

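The deposited values were the authors' log2 expression values for 33297 probe sets on 3 Affymetrix arrays, 1 each of GO, rGO and control. RMA and MAS5 are named per the submitters' processing notes, with no role or version, and the genome build is not given in the sources used here. The distributions are near-equal between arrays, genes are not centred, and any further scaling is unknown. The number of arrays limits the precision.

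Genes were named through the platform annotation, which can be old: 19460 probe sets had 1 symbol, 1754 several and 12083 none listed. The level filter was the 40th percentile of gene means. Differences were taken between log2 values of 2 arrays and counted at 2-fold and 1.5-fold, beside the share of all genes past the filter. Whether a count by fold reflects more than variation between dishes was not tested, as each group has 1 array. The members, lists and alternatives were chosen with earlier results of these data known. Members past the filter were named in full where they ranked among the 12 largest GO or 6 largest rGO differences from control. Those past 1.5-fold in any comparison were also named in full. Below the filter, array values were given for the 3 with the largest difference from control in either exposure. Of each other list, the 3 largest GO differences and any gene past 2-fold were named. Other genes named were chosen after their values were seen. Older symbols in the lists were resolved through RefSeq synonyms, and gene order was that of the RefSeq protein-coding genes. Alternatives were quantile normalization, median centring, loess (span 0.3), no filter, a 60th percentile filter, averaged probe sets and a 1.3-fold threshold. Python 3.11.15, numpy 2.4.6, pandas 2.3.3, statsmodels 0.14.6 and matplotlib 3.10.9 were used.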

Additional observations from a re-analysis of the deposited data

How the results depend on the processing

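The count of receptors at least 1.5-fold different between GO and control was 1 (NR2C1) under the 6 other settings of normalization, filter and probe set. It was 2 at a 1.3-fold threshold, where PPARG joins NR2C1. The filter and probe set settings leave the NR2C1 value unchanged, as it has 1 probe set, so they could not move it under 1.5-fold. Between GO and rGO the count was 2, and 1 after quantile normalization (PPARG), 1 after median centring (PPARG) and 1 after the loess (NR2C1). The counts at 2-fold in the 3 comparisons, and at 1.5-fold after rGO, were 0 in all settings run. The medians over the receptors kept their sign in these settings, between 0.04 and 0.10 for GO minus control, -0.06 and -0.01 for rGO minus control, and 0.04 and 0.10 for GO minus rGO. Of 240 values of single receptors, none moved by more than 0.0385, and 4 changed sign, all from a size of 0.0154 or less. The 240 include averaged probe sets, which leave all receptors but RXRB as they were. They also include median centring, which shifts all genes of a comparison alike. Medians of related lists changed sign where they were near 0, in an alternative chosen after seeing the data: the PPAR targets after GO (-0.02, and 0.00058 after median centring), and after rGO the targets of the retinoic acid, glucocorticoid and LRH-1 receptors. No paired analysis was possible because each group has 1 array. With 1 array per group, neither the spread between dishes nor an error for any difference could be had, and values below 6.66 mix signal with background.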
